A study of Mus musculus with 10 samples.

Results

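Immediate early response genes, here Egr1, Egr2, Egr3, Fos, Jun, Atf3, Myc, Nr4a1, Nr4a3 and Dusp1, were followed in mouse lung RNA on 10 expression arrays. They were taken by symbol from the array's gene annotation, and all 10 were found among 19505 annotated genes. All 10 also passed the filter on low values, which kept 19011 genes: a gene stayed if it reached the 40th percentile of its array on at least 2 arrays. A gene with several probe sets was read from the one with the highest mean, which here concerned Egr3 alone. The genes were chosen with earlier results of the same arrays known, among them the lower values of this class of genes in mice given SQ-diEG than in mice given water. Values from the SQ-diEG groups are therefore described without a test.

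The mice were male C57BL/6J, 6 weeks old by the husbandry text, and 40 animals were split into 5 groups of 8. Mice of the uninjected group received no tumour cells and drank water. All remaining mice received B16F10 cells, a mouse melanoma line from the same strain, by injection. They were then given water, DTIC (dacarbazine, which alkylates DNA and is a melanoma drug) at 70 mg/kg per day, SQ-diEG at 5 mg/kg per day or SQ-diEG at 25 mg/kg per day. Treatment lasted 20 days in every group, and no structure of SQ-diEG is given here. Each group holds 2 arrays of whole lung RNA. Whether 1 mouse or several stand behind an array is not stated, so p-values rest on the spread between these arrays, which may be technical. For each gene that spread is drawn largely from all genes together, and not from its own arrays alone. In whole lung, fewer cells of a type and less RNA per cell cannot be told apart.

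Immediate early genes are switched on within minutes of a stimulus, without new protein synthesis. Growth factors act through the ERK kinases on serum response factor and its partners at CArG boxes, and cAMP and calcium act through CREB at cAMP response elements. The resulting mRNAs are short-lived, so that their level in a tissue follows recent signalling and also the handling of the tissue at collection. EGR proteins, FOS, JUN, ATF3, MYC and the NR4A receptors are transcription factors, whereas DUSP1 is a phosphatase that shuts off MAP kinases.

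The upstream DNA that receives these signals is shown for 4 members, to show the elements through which both routes act. RefSeq promoter windows (assembly GRCm38.p6, 300 bases ending 50 bases past the transcript start) were at hand for 7 of the 10 genes. TGACG, searched on both strands, lay in at least 1 window of 6 of these 7 (Atf3, Dusp1, Egr2, Fos, Nr4a1 and Nr4a3) and in 20.8% of all 32851 windows. The full palindrome TGACGTCA, which contains that core on either strand, lay in Dusp1 alone and in 1.79% of all windows. A CArG box lay in Egr2 alone, against 1.63% of all windows, and TATAAA in Fos alone, against 13.6%. DNA farther upstream was not searched, so a motif not found in a window may lie beyond it. The shares are per window, whereas a gene such as Egr2 has several windows, so the counts of genes are not compared with them. Capitals mark the motif named beside each stretch of 30 bases, written 5′ to 3′ on the gene's strand, and positions are counted back from the transcript start. The Nr4a3 stretch also holds the short core on the other strand, at positions -213 to -209, left in lower case.
Dusp1, chr17:26508597-26508626, minus strand, full element at positions -143 to -136: ggtagggcgggTGACGTCAccgcccggtca
Fos, chr12:85473811-85473840, plus strand, short core at positions -66 to -62: cagttccgcccagTGACGtaggaagtccat
Nr4a3, chr4:48045087-48045116, plus strand, short core at positions -205 to -201: catgtcgtcacatTGACGtctcgcattcca
Egr2, chr10:67537787-67537816, plus strand, CArG box at positions -72 to -63: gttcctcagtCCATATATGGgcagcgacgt
These matches describe the letters of the windows and were not related to any value below.

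The arrays set a limit that touches every value. On each array the 95th percentile of 5222 probe sets that serve as negative controls was taken as a limit of detection. None of the 100 member values was above it, whereas 0.359% of all gene values were. That count depends on the reference, since 41 of the 100 values were above the 95th percentile of the 23 background probe sets, as were 39.8% of all gene values. Against the negative controls, Atf3 on the second uninjected array came closest, 0.35 log2 units below it. Of the 100 member values, 46 lay above the median of the negative controls, as did 41.7% of all gene values, and 59 lay above the median of the background probe sets, as did 56.9%. The members thus lay within the range of the negative controls on all 10 arrays, and a difference between groups is not a difference between detected levels.

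**Figure D1:**
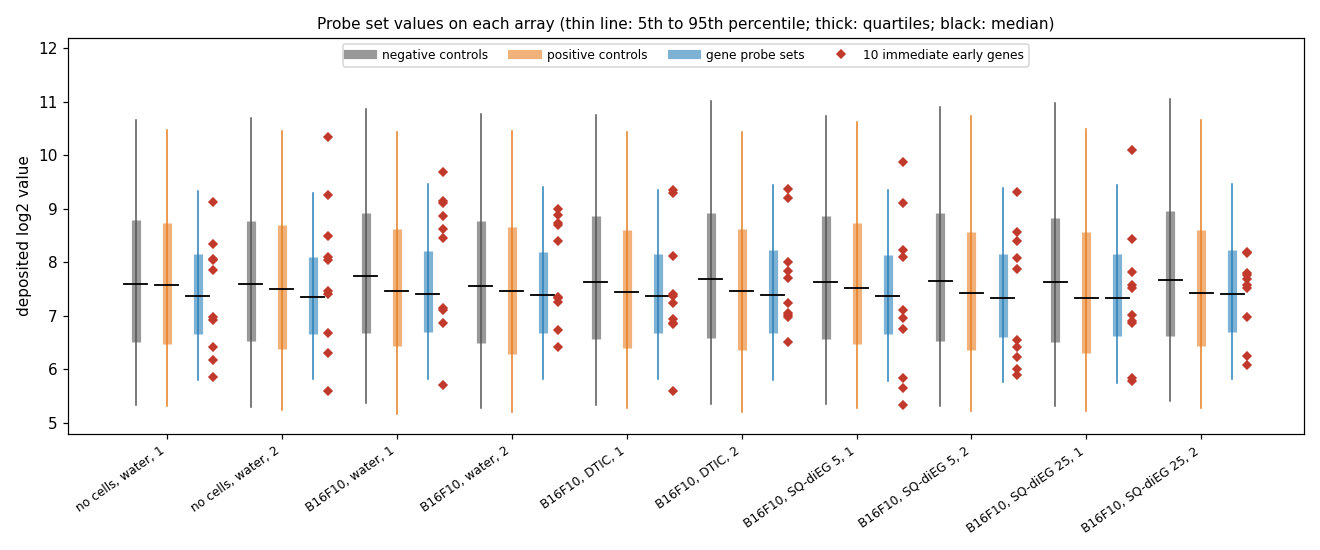
Deposited log2 values (vertical axis) on each of the 10 arrays (horizontal axis), shown as 5th to 95th percentile lines and quartile bars for negative controls, positive controls and gene probe sets, with the 10 immediate early genes as diamonds. All diamonds lie below the upper end of the negative controls of their array, and the median of the positive controls lies below that of the negative controls on all 10 arrays.

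Pairs of arrays correlated over the genes, whose values are not independent of each other, with a Pearson r between 0.111 and 0.237, with a mean of 0.194 within and 0.184 between groups. None of the 10 surfactant and type II cell markers, 8 measured markers of type I and club cells, 10 of lung endothelium or 10 of melanocytes passed that limit on any array. By this limit, which 0.359% of all gene values passed, the labelled tissue and the injected line were not seen in their defining genes. These markers were not compared with the background probe sets. Among 13 measured housekeeping genes, Gapdh passed it on 4 arrays, Eef1a1 on 2 and Tfrc on 1. The hybridization controls, transcripts added to the hybridization mix, averaged 8.47 and 8.68 on the uninjected arrays, 10.28 and 10.99 on the injected water arrays, 9.22 and 10.28 with DTIC, 9.10 and 10.15 at 5 mg/kg and 10.27 and 10.92 at 25 mg/kg. Their part in the differences below was not tested beyond a fit that holds them as a covariate.

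Egr1, the zinc-finger factor that is the classic ERK target, read 5.86 and 5.60 on the uninjected arrays, 7.14 and 8.70 on the injected water arrays, 6.87 and 7.72 with DTIC, 5.34 and 5.89 with SQ-diEG at 5 mg/kg and 5.78 and 6.97 at 25 mg/kg. Both injected water arrays were above all 4 SQ-diEG arrays and above both uninjected arrays, and the DTIC arrays overlapped those with water. Its mean over the 10 arrays stood at the 3.63rd percentile of all genes, and 8 of its 10 values lay below the negative-control median.

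Egr2, known for myelination and for restraining T cells, ranged from 6.69 to 9.32, and its widest gap within a group, 2.44 between the uninjected arrays, came close to that whole range. Egr3, a close relative of Egr1, ranged from 7.80 to 9.36 in its chosen probe set, with 9.35 and 9.36 under DTIC and 7.82 and 7.80 at 25 mg/kg. It read 8.04 and 9.26 on the uninjected arrays, 8.45 and 8.89 with injection and water and 9.10 and 7.87 at 5 mg/kg. Egr3 had 3 probe sets, and they did not move together. At 25 mg/kg against water the chosen one differed by -0.86 on the log2 scale, another by -0.90 and the remaining one by 0.50.

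**Figure D2:**
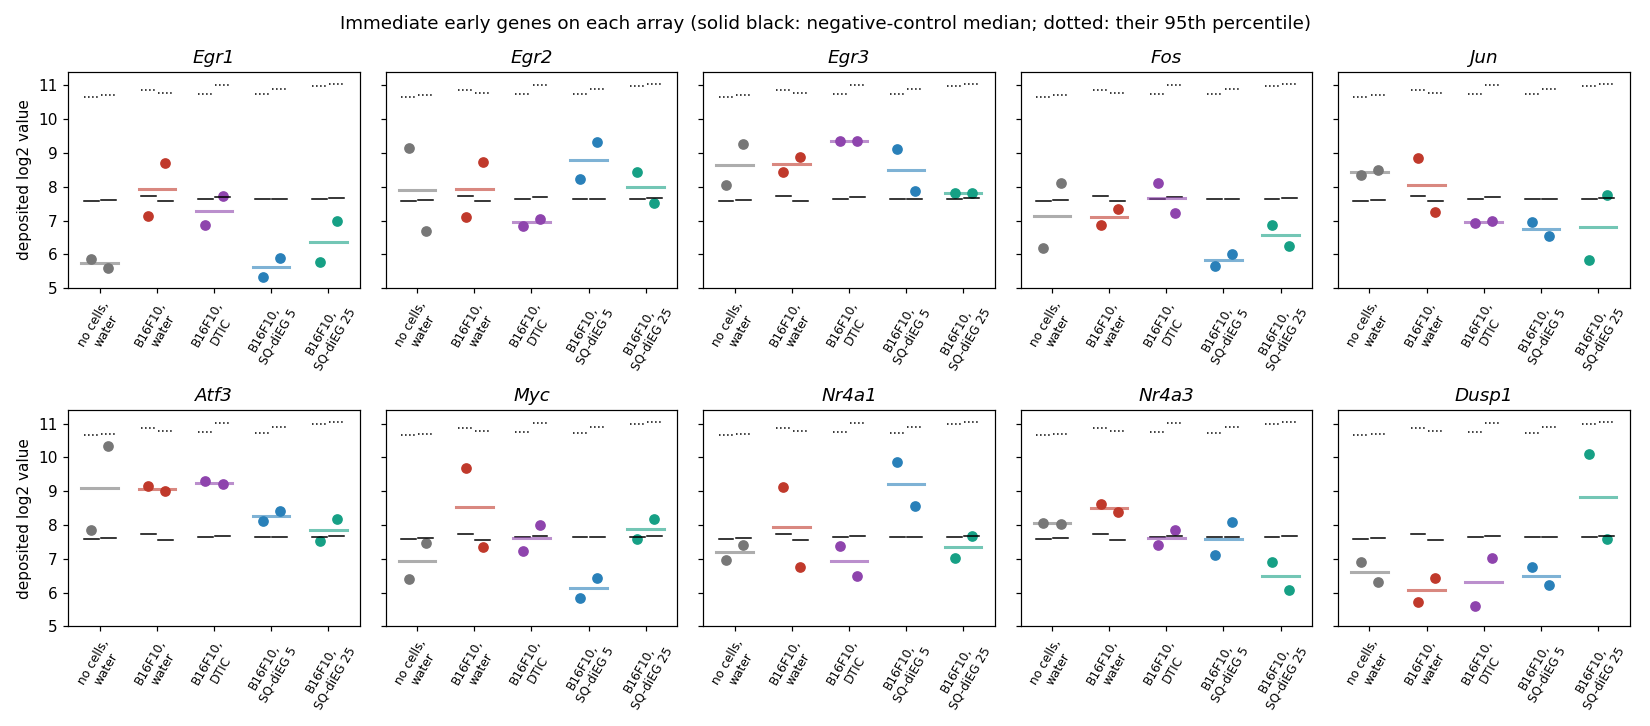
Deposited log2 value (vertical axis) of each immediate early gene on the 2 arrays of each of the 5 groups (horizontal axis), with the group mean as a coloured bar and each array's negative-control median (solid) and 95th percentile (dotted) in black. No point reaches a dotted line, and Egr1 is highest in injected mice given water, at 7.14 and 8.70.

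Fos and Jun pair as the AP-1 transcription factor, and ATF3 is a stress-induced relative that can pair with JUN. Fos read 6.18 and 8.10 on the uninjected arrays, 6.86 and 7.33 with injection and water, 8.12 and 7.23 with DTIC, 5.66 and 6.01 at 5 mg/kg and 6.86 and 6.25 at 25 mg/kg. The arrays at 5 mg/kg were the lowest of the 10 for Fos, while those at 25 mg/kg overlapped the injected water arrays by a narrow margin. Jun read 8.35 and 8.50 on the uninjected arrays, 8.86 and 7.26 with injection and water and 6.94 and 6.97 with DTIC. It read 6.96 and 6.55 at 5 mg/kg and 5.84 and 7.76 at 25 mg/kg.

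Atf3 read 7.86 and 10.35 on the uninjected arrays, 9.15 and 9.005 with injection and water, 9.30 and 9.20 with DTIC, 8.10 and 8.41 at 5 mg/kg and 7.52 and 8.19 at 25 mg/kg. All 4 SQ-diEG arrays were below the injected water and DTIC arrays, but the uninjected arrays spanned nearly the whole range. Atf3 and Egr3 had the highest means of the members, at the 97.8th and 96.8th percentiles of all genes, and both were above the background median on 10 of 10 arrays.

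Myc, a driver of growth and ribosome production, read 6.41 and 7.47 on the uninjected arrays, 9.68 and 7.36 with injection and water, 7.24 and 8.01 with DTIC, 5.84 and 6.42 at 5 mg/kg and 7.58 and 8.18 at 25 mg/kg. The injected water arrays lay 2.32 log2 units apart, and the lower of them lay within the range of the uninjected arrays and of the DTIC arrays and below both arrays at 25 mg/kg.

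Nr4a1 and Nr4a3 encode orphan nuclear receptors induced by many stimuli. Nr4a1 read 6.97 and 7.40 without injection, 9.11 and 6.74 with injection and water, 7.37 and 6.50 with DTIC, 9.87 and 8.57 at 5 mg/kg and 7.02 and 7.68 at 25 mg/kg. Its highest array was at 5 mg/kg, where most other members were low. Nr4a3 read 8.07 and 8.04 without injection, 8.62 and 8.40 with injection and water, 7.41 and 7.84 with DTIC, 7.10 and 8.07 at 5 mg/kg and 6.91 and 6.08 at 25 mg/kg. It was the steadiest member between arrays of a group, with a pooled SD of 0.43, at the 3.95th percentile of all genes.

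Dusp1, which removes the activating phosphates from p38, JNK and ERK, read 6.92 and 6.30 on the uninjected arrays, 5.71 and 6.42 with injection and water, 5.60 and 7.01 with DTIC, 6.76 and 6.23 at 5 mg/kg and 10.10 and 7.58 at 25 mg/kg. Both arrays at 25 mg/kg were above the other 8, and they were also the least alike pair of all members, 2.52 log2 units apart. Only the first of them exceeded its negative-control median, and 9 of 10 Dusp1 values lay below that line.

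With 5 groups ranked by mean, each member has 4 pairs of neighbouring groups. Of these 40 pairs, 31 overlapped between arrays and 9 did not. This count was not made for all genes, so nothing is read from it or from the breaks named below. For Egr1 the order was injected water, DTIC, 25 mg/kg, uninjected and 5 mg/kg, and every neighbouring pair overlapped. The same held for Myc (injected water, 25 mg/kg, DTIC, uninjected, 5 mg/kg), Nr4a1 (5 mg/kg, injected water, 25 mg/kg, uninjected, DTIC) and Egr2 (5 mg/kg, 25 mg/kg, injected water, uninjected, DTIC). For Nr4a3 the order was injected water, uninjected, DTIC, 5 mg/kg and 25 mg/kg, and 1 neighbouring pair overlapped, DTIC with 5 mg/kg. Dusp1 ran 25 mg/kg, uninjected, 5 mg/kg, DTIC and injected water, and only 25 mg/kg stood apart from its neighbour. Atf3 ran DTIC, uninjected, injected water, 5 mg/kg and 25 mg/kg, with a break between injected water and 5 mg/kg. Jun ran uninjected, injected water, DTIC, 25 mg/kg and 5 mg/kg, with a break between injected water and DTIC. Fos ran DTIC, uninjected, injected water, 25 mg/kg and 5 mg/kg, with a break between the SQ-diEG doses. Egr3 ran DTIC, injected water, uninjected, 5 mg/kg and 25 mg/kg, with a break at either end. The pooled SD within groups had a median of 0.81 over the members and 0.92 over all genes tested, and the median range over the 10 arrays was 2.92 for the members and 2.96 for all genes.

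SQ-diEG at 5 mg/kg was set against water in injected mice, the contrast on which these genes were chosen. Of the 10 means, 7 were lower and 3 higher with the compound, where 51.9% of all genes had a lower mean. Both arrays were below both water arrays for 6 members (Egr1, Fos, Jun, Atf3, Myc and Nr4a3), against 18.0% of all genes, and above them for none, against 15.5%. Since the choice of genes used this contrast, nothing is read from these counts. Myc averaged 6.13 ± 0.41 with the compound and 8.52 ± 1.64 with water (SD, n = 2 each), a log2 difference of -2.39 (SE 0.96). Egr1 averaged 5.62 ± 0.39 and 7.92 ± 1.10 (SD, n = 2 each), a log2 difference of -2.31 (SE 0.95). Jun differed by -1.31 (SE 0.96) and Fos by -1.26 (SE 0.95). The difference of Jun was -0.51 without the first injected water array and -2.11 without the second, and that of Egr1 was -1.53 without the second. Nr4a1 lay the other way, at 9.22 ± 0.92 and 7.93 ± 1.67 (SD, n = 2 each), a difference of 1.29 that was 2.48 without the first injected water array, 0.11 without the second and 0.65 without the first array at 5 mg/kg. Egr2 and Dusp1 differed by 0.86 and 0.43, and by 0.05 and 0.07 without the first injected water array. When the hybridization controls entered the fit as a covariate, an alternative added after the data were seen, Egr1 differed by -1.26 (SE 1.21) and Nr4a1 by 0.20 (SE 1.23). Without the first injected water array the difference of Myc was -1.23, and without the second it was -3.55. The members' median difference was -0.87, and that of all genes -0.05. Nothing is read from it, as from the counts above. In the same contrast the mean of 10 endothelial markers lay between 6.99 and 7.20 at 5 mg/kg and between 7.62 and 7.67 with water, and that of 9 fibroblast and smooth muscle markers between 7.54 and 7.77 and between 7.34 and 7.51. Markers higher and lower at 5 mg/kg numbered 3 and 7 for endothelium and 5 and 4 for fibroblasts and smooth muscle. Their part in the members' values was not tested.

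**Figure D3:**
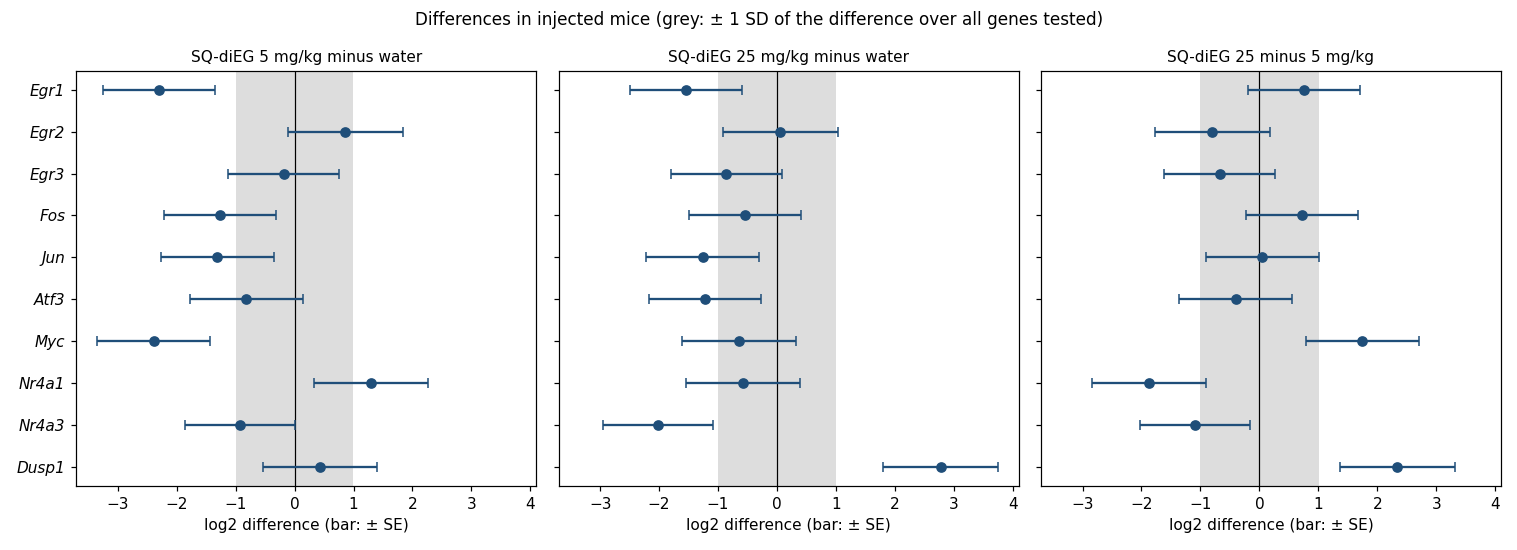
Log2 differences (horizontal axis, bars ± SE from limma) of the 10 genes (vertical axis) for SQ-diEG at 5 mg/kg minus water, 25 mg/kg minus water and 25 minus 5 mg/kg in injected mice, with ± 1 SD of the difference over all genes in grey. Egr1 and Myc lie farthest to the left at 5 mg/kg, Nr4a3 at 25 mg/kg, and Dusp1 lies farthest to the right at 25 mg/kg.

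At 25 mg/kg against water, 8 of the 10 means were lower and 2 higher, where 50.9% of all genes had a lower mean. Both arrays were below both water arrays for Egr1, Egr3, Atf3 and Nr4a3, against 16.8% of all genes, and above them for Dusp1, against 16.6%. Dusp1 averaged 8.84 ± 1.78 with the compound and 6.07 ± 0.51 with water (SD, n = 2 each), a log2 difference of 2.77 (SE 0.97). It was 4.04 without the second array at 25 mg/kg and 1.51 without the first. Nr4a3 averaged 6.49 ± 0.59 and 8.51 ± 0.16 (SD, n = 2 each), a log2 difference of -2.02 (SE 0.93). Egr1, Jun and Atf3 differed by -1.55 (SE 0.95), -1.26 (SE 0.96) and -1.22 (SE 0.96). Without the first injected water array Egr1 and Jun differed by -2.33 and -0.46, and without the second by -0.77 and -2.06. Without the first array at 25 mg/kg they differed by -0.95 and -0.29, and without the second Jun differed by -2.22. Myc differed by -0.64 (SE 0.96) and by 0.52 without the first injected water array and -1.80 without the second. The members' median difference was -0.75, against -0.02 for all genes. Nothing is read from it or from the counts above, since the genes were chosen on this contrast too. Marker lists also differed in this contrast: the mean of 10 type II cell markers lay between 7.64 and 7.94 at 25 mg/kg and between 6.80 and 7.30 with water, and that of 10 melanocyte markers between 7.04 and 7.20 and between 7.61 and 7.78. The endothelial markers lay between 7.70 and 7.97 and between 7.62 and 7.67 in the same order, and the fibroblast and smooth muscle markers between 7.14 and 7.26 and between 7.34 and 7.51. Markers higher and lower at 25 mg/kg numbered 9 and 1 for type II cells and 2 and 8 for melanocytes. For endothelium they numbered 4 and 6, against the direction of the list mean, and for fibroblasts and smooth muscle 4 and 5. Their part in the members' values was not tested. Both doses are set against the same 2 injected water arrays, so the values at the 2 doses are not independent.

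Over the doses 0, 5 and 25 mg/kg in injected mice, 7 members (Egr1, Egr3, Fos, Jun, Atf3, Myc and Nr4a3) had lower means at both doses than at 0, against 34.5% of all genes. Taken over all 10 members, all 4 SQ-diEG arrays were below both water arrays for 3, Egr1, Atf3 and Nr4a3, against 6.94% of all genes. The means stepped down from 0 to 5 to 25 mg/kg for Egr3, Atf3 and Nr4a3, against 16.7% of all genes, and stepped up for Dusp1, against 16.0%. The other 6 had no such order. For Egr1, Fos, Jun and Myc the mean at 5 mg/kg was the lowest of the 3, and for Egr2 and Nr4a1 it was the highest. The genes were chosen on SQ-diEG against water, so nothing is read from these counts.

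**Figure D4:**
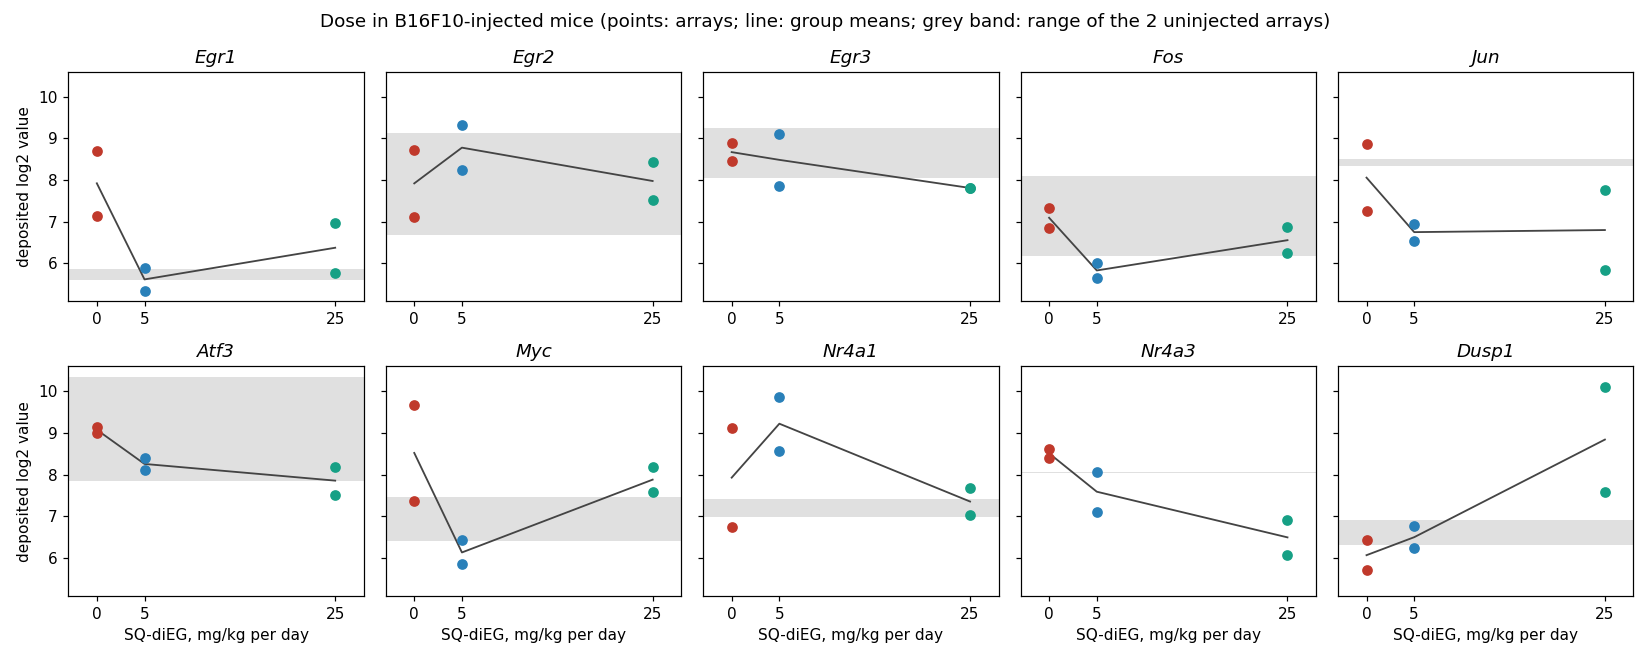
Deposited log2 value (vertical axis) of each gene against the SQ-diEG dose in mg/kg per day (horizontal axis) in injected mice, with arrays as points, group means joined by a line and the range of the 2 uninjected arrays as a grey band. Nr4a3 steps down to 6.49 and Dusp1 up to 8.84 at 25 mg/kg, whereas Myc is lowest at 5 mg/kg.

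Set directly against each other, 25 and 5 mg/kg divided the members evenly, with 5 means higher and 5 lower at 25 mg/kg, where 48.9% of all genes had a lower mean. Dusp1 differed by 2.34 (SE 0.97), Myc by 1.75 (SE 0.96), Nr4a1 by -1.87 (SE 0.97) and Nr4a3 by -1.10 (SE 0.93) on the log2 scale. Dusp1 differed by 1.08 without the first array at 25 mg/kg and by 3.60 without the second. Nr4a1 differed by -1.22 without the first array at 5 mg/kg, and Nr4a3 by -0.61 without the second array at 5 mg/kg and -0.68 without the second at 25 mg/kg. Both arrays at 25 mg/kg were above both at 5 mg/kg for Fos, Myc and Dusp1, against 17.7% of all genes, and below them for Egr3, Nr4a1 and Nr4a3, against 15.8%. The members' median difference was -0.18 and that of all genes 0.03.

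The comparison of DTIC in injected mice with uninjected mice given water holds no array of the contrasts of SQ-diEG with water. It joins the effects of injection and drug. Earlier results of these data were known when the genes were chosen, so it is not shown to be independent of that choice. Of the 10 genes, 5 had higher and 5 lower means with DTIC, where 48.4% of all genes had a lower mean. None passed limma's test (Benjamini-Hochberg adjusted p = 0.999 for each), where 0% of all genes passed. Egr1 averaged 7.29 ± 0.59 in injected mice with DTIC and 5.73 ± 0.18 in uninjected mice (SD, n = 2 each), a log2 difference of 1.56 (SE 0.95), and of 0.34 (SE 1.29) with the covariate. Jun averaged 6.95 ± 0.02 and 8.42 ± 0.11 (SD, n = 2 each), a log2 difference of -1.47 (SE 0.96). Both DTIC arrays were above both uninjected arrays for Egr1 and Egr3, against 17.7% of all genes, and below them for Jun and Nr4a3, against 15.8%. Macrophage and monocyte markers averaged between 7.12 and 7.25 with DTIC and between 6.97 and 7.02 in uninjected mice, and fibroblast and smooth muscle markers between 7.46 and 7.54 and between 6.96 and 7.35. Melanocyte markers lay the other way, between 7.39 and 7.46 with DTIC and between 7.49 and 7.50 in uninjected mice. Markers higher and lower with DTIC numbered 6 and 3 for macrophages and monocytes, 5 and 4 for fibroblasts and smooth muscle and 4 and 6 for melanocytes. Their part was not tested. Over all genes 897 had an unadjusted p under 0.05, where 951 would by chance.

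Injection itself was compared in mice given water, to ask what the melanoma cells changed in the lung. Of the 10 means, 6 were higher and 4 lower after injection, where 47.8% of all genes had a lower mean. Egr1 averaged 7.92 ± 1.10 in injected and 5.73 ± 0.18 in uninjected mice (SD, n = 2 each), a log2 difference of 2.19 (SE 0.95). The adjusted p of Egr1 from limma was 0.825, and its difference was 0.05 (SE 1.81) with the hybridization controls as covariate and 1.41 without the second injected water array. Myc averaged 8.52 ± 1.64 and 6.94 ± 0.74 (SD, n = 2 each), a log2 difference of 1.58 (SE 0.96, adjusted p = 0.899 from limma). It was 0.42 without the first injected water array, 2.74 without the second and 1.05 without the first uninjected array. The injected water arrays are the same ones that set the SQ-diEG differences above, so their high Egr1 and Myc values enter both. The genes were chosen on those differences, so a higher member after injection, and its p-value, is no independent result. Nr4a1, Nr4a3, Dusp1 and Jun differed by 0.74, 0.46, -0.55 and -0.36, and Egr2, Egr3, Fos and Atf3 by less than 0.05 in size. The members' median difference was 0.02, against 0.05 for all genes. Both injected arrays were above both uninjected arrays for Egr1 and Nr4a3, against 18.3% of all genes, and below them for none, against 16.0%. None of the 10 passed, as 0% of all genes did, while 1092 genes had an unadjusted p under 0.05. The hybridization controls were higher on both injected arrays, and with their mean in the fit Nr4a3 differed by -0.04 (SE 1.81) and Nr4a1 by 2.97 (SE 1.84). The mean of 13 housekeeping genes was also higher, between 8.13 and 8.45 against 7.29 and 7.89, as was that of 10 endothelial markers, between 7.62 and 7.67 against 6.95 and 7.28. Macrophage and monocyte markers lay between 7.29 and 7.81 against 6.97 and 7.02, and melanocyte markers between 7.61 and 7.78 against 7.49 and 7.50. Genes higher and lower after injection numbered 10 and 3 for housekeeping and 6 and 4 for endothelium. They numbered 6 and 3 for macrophages and monocytes and 5 and 5 for melanocytes. The part of these lists in the members' values was not tested.

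DTIC was compared with water in injected mice, to ask what the drug changed. The water arrays are again those of the contrasts on which the genes were chosen, so a lower member with DTIC is no independent result. Of the 10 means, 6 were lower and 4 higher with DTIC, where 50.5% of all genes had a lower mean. Jun averaged 6.95 ± 0.02 with DTIC and 8.06 ± 1.13 with water (SD, n = 2 each), a log2 difference of -1.10 (SE 0.96), and Nr4a1 differed by -0.99 (SE 0.97), Egr2 by -0.97 (SE 0.98), Myc by -0.89 (SE 0.96) and Nr4a3 by -0.89 (SE 0.93). Without the first injected water array Jun, Nr4a1, Egr2 and Myc differed by -0.30, 0.19, -1.78 and 0.27, and without the second by -1.90, -2.18, -0.16 and -2.06. Both DTIC arrays were below both water arrays for Egr2, Jun and Nr4a3, against 16.2% of all genes, and above them for Egr3 and Atf3, also against 16.2%. None passed limma's test (Benjamini-Hochberg adjusted p = 0.995 for each), as 0% of all genes did, with 925 genes at an unadjusted p under 0.05. Marker lists also lay apart: with DTIC and with water respectively, housekeeping genes averaged between 7.36 and 7.98 and between 8.13 and 8.45, endothelial markers between 7.03 and 7.43 and between 7.62 and 7.67, and macrophage and monocyte markers between 7.12 and 7.25 and between 7.29 and 7.81. Melanocyte markers lay between 7.39 and 7.46 and between 7.61 and 7.78, type I and club cell markers between 7.08 and 7.63 and between 7.64 and 7.75, and type II cell markers between 7.47 and 7.54 and between 6.80 and 7.30. Genes higher and lower with DTIC numbered 2 and 11 for housekeeping, 4 and 6 for endothelium and 2 and 7 for macrophages and monocytes. They numbered 4 and 6 for melanocytes, 3 and 5 for type I and club cells and 7 and 3 for type II cells. Their part in the members' values was not tested. The median difference of the members was -0.76, against -0.01 for all genes, and it was 0.04 without the first injected water array and -0.03 without the second, with nothing read from it because of the shared water arrays.

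**Figure D5:**
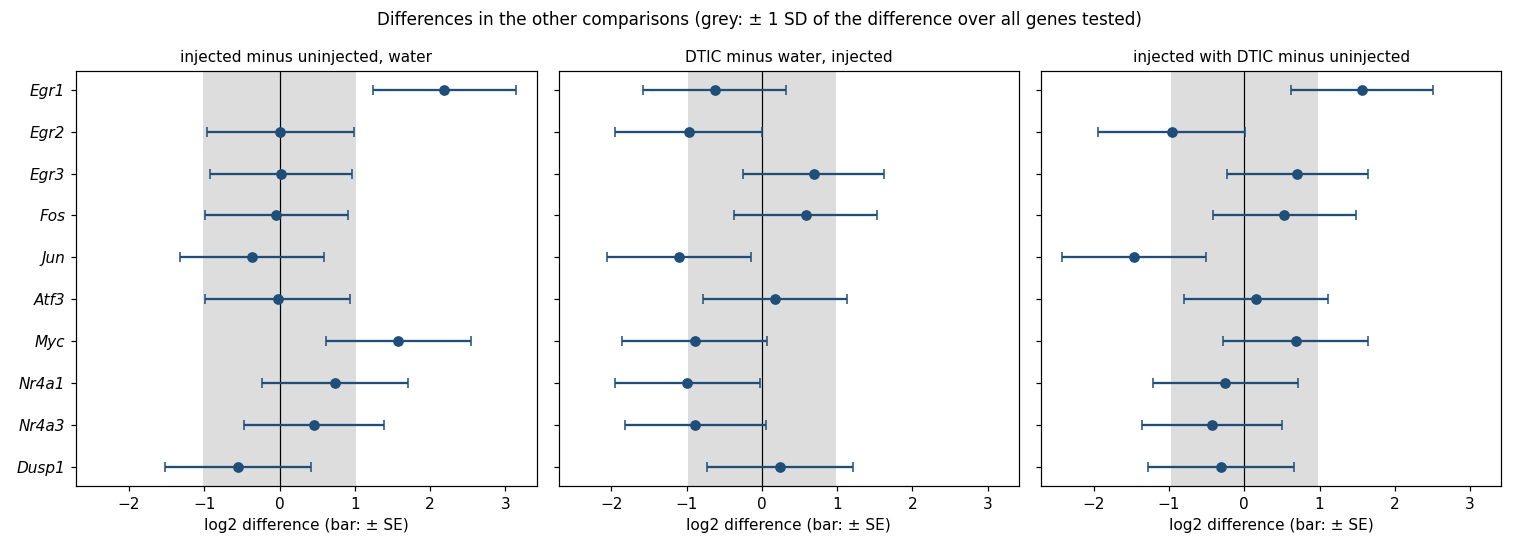
Log2 differences (horizontal axis, bars ± SE from limma) of the 10 genes (vertical axis) for injected minus uninjected mice given water, DTIC minus water in injected mice, and injected mice with DTIC minus uninjected mice, with ± 1 SD of the difference over all genes in grey. Egr1 lies farthest to the right in the first and last panels, at 2.19 and 1.56, and no gene passed the test.

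Other immediate early genes numbered 36, all on the array, and 34 were tested. At 5 mg/kg against water 21 were lower and 13 higher (median -0.46, against -0.05 for all genes), and at 25 mg/kg 23 were lower and 11 higher (median -0.39, against -0.02). The list is of the same class as the one whose lower values led to the choice of members, so it is no independent sign of direction. The kinase gene Sik1 differed by 2.52 (SE 0.98) at 5 mg/kg, the small GTPase gene Rhob by -1.92 (SE 0.94), the matricellular Ccn1 by -1.59 (SE 0.98) and Ppp1r15a, a regulator of the stress response of translation, by 1.45 (SE 0.97). At 25 mg/kg the largest differences were -1.67 (SE 0.94) for Klf10, -1.46 (SE 1.07) for the ERK phosphatase Dusp6, -1.26 (SE 0.97) for Egr4 and 1.00 (SE 0.99) for the cytokine inhibitor Socs3. Some arrays of a group lay far apart. Sik1 averaged 8.65 ± 2.04 at 5 mg/kg and 6.13 ± 0.98 with water (SD, n = 2 each). Socs3 averaged 7.83 ± 2.06 at 25 mg/kg and 6.83 ± 0.35 with water (SD, n = 2 each). With injection 17 were higher and 17 lower, led by Csrnp1 at -1.73, Gadd45b at -1.73, Sik1 at -1.41 and Ier5 at 1.37, and with DTIC against water 12 were higher and 22 lower, led by Csrnp1 at 1.94, Dusp5 at -1.78, Fosb at 1.73 and Dusp6 at -1.64. With DTIC against uninjected mice 15 were higher and 19 lower, led by Gadd45b at -2.36, Zfp36l1 at -1.87, Fosb at 1.71 and Dusp5 at -1.61. Between the doses 18 were higher and 16 lower at 25 mg/kg, with Gadd45b at 1.73, Sik1 at -1.69, Ppp1r15a at -1.64 and Dusp4 at -1.50. None of the 34 passed in the 3 tested comparisons. Of the 360 values of this list 1 was above the limit of detection, in Ccn2.

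Upstream genes of the ERK, SRF and CREB pathways numbered 30, of which 22 were on the array and tested. Srf, the serum response factor itself, averaged 8.40 ± 0.21 at 5 mg/kg and 5.82 ± 0.05 with water (SD, n = 2 each), a log2 difference of 2.59 (SE 0.93). It lay above the negative-control median on 2 arrays and above the limit of detection on 0. Its mRNA does not measure the activity of the factor, and a link to the members was not tested. The other large differences at 5 mg/kg were -2.06 for the SRF partner Elk3, 1.88 for the kinase Rps6ka5 and 1.76 for Nras. At 25 mg/kg they were 2.08 (SE 0.99) for Nras, -1.82 (SE 0.98) for Elk3, -1.71 (SE 0.99) for the ERK activator Map2k1 and 1.58 (SE 0.97) for Braf. Arrays of a group lay far apart here. Braf averaged 10.81 ± 2.10 at 25 mg/kg and 9.23 ± 0.13 with water (SD, n = 2 each). Map2k1 averaged 7.27 ± 0.13 and 8.98 ± 2.10, and Nras 8.18 ± 1.48 and 6.10 ± 1.25, in the same order. The list had 9 genes higher and 13 lower at 5 mg/kg, 13 higher and 9 lower at 25 mg/kg and 15 higher and 7 lower between the doses, where Mapk14 differed by 1.87, Crebbp by -1.79, Braf by 1.76 and Srf by -1.29. With injection 9 were higher and 13 lower, and the adaptor Grb2 averaged 6.52 ± 0.27 in injected and 9.28 ± 0.21 in uninjected mice (SD, n = 2 each), a log2 difference of -2.76 (SE 0.93, adjusted p = 0.722 from limma). Map2k1, Rps6ka5 and Elk3 followed at 2.23, -1.43 and 1.24. With DTIC against water 11 were higher and 11 lower, led by Elk3 at -2.63, Map2k1 at -2.12, Atf1 at 1.78 and Mrtfb at -1.46, and against uninjected mice 10 were higher and 12 lower, led by Creb1 at 1.98, Crebbp at -1.88, Grb2 at -1.65 and Elk3 at -1.40. None of the 22 passed in the 3 tested comparisons. Of the 220 values of this list 2 were above the limit of detection, 1 in Braf and 1 in Sos1.

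Partners and corepressors of the members, 17 of 18 on the array, included the AP-1 and ATF family, the MAX network around MYC and the EGR corepressors Nab1 and Nab2. They had 10 lower and 7 higher at 5 mg/kg and 11 lower and 6 higher at 25 mg/kg, with medians of -0.14 and -0.59. Mycl, Atf4, Mxi1 and Mnt differed by -2.21, 1.76, 1.70 and -1.69 at 5 mg/kg, and Jdp2, Atf2, Mnt and Mycl by -1.78, -1.76, -1.45 and -1.44 at 25 mg/kg. Between the doses 7 were higher and 10 lower at 25 mg/kg, with Atf2 at -1.62, Mxd1 at 1.45, Batf3 at -1.43 and Mga at 1.30. With injection 8 were higher and 9 lower, led by Atf4 at -2.45, Atf2 at 1.94, Mycl at 1.77 and Jdp2 at 1.63. With DTIC against water 7 were higher and 10 lower, led by Mycn at 2.08, Jdp2 at -2.05, Nab2 at -1.88 and Atf2 at -1.58, and against uninjected mice 6 were higher and 11 lower, led by Mycn at 1.97, Nab2 at -1.87, Mxd1 at -1.40 and Atf4 at -0.96. Mycn averaged 8.88 ± 1.78 with DTIC and 6.80 ± 0.41 with water (SD, n = 2 each). None passed in the 3 tested comparisons, and 0 of their 170 values were above the limit of detection.

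Leukocytes carry high levels of Fos and Dusp1, so their markers are given beside these genes. The mean level of 9 neutrophil markers lay between 7.41 and 7.47 on the injected water arrays, between 7.27 and 7.87 at 5 mg/kg and between 7.04 and 7.64 at 25 mg/kg. That of 9 macrophage and monocyte markers lay between 7.29 and 7.81, between 6.92 and 7.30 and between 7.37 and 7.67 in the same order. None of these 18 markers was above the limit of detection on any array, and their part in the values above was not tested.

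The genes whose pattern over the 10 arrays was most like a member's were found by the mean absolute difference of centred log2 values. For Egr1 they were Ccdc185 (0.28), Vegfb (0.29) and Hk3 (0.30), where the median gene stood at 1.09. For Myc they were Uap1 (0.31), Mrgbp (0.32) and Mia3 (0.34), against a median of 1.08, and for Dusp1 they were Vmn1r78 (0.33), Olfr740 (0.34) and Tpmt (0.35), against 1.15. The genes named were picked as the nearest, so other members were farther from these 3 by construction. The member nearest to Egr1 was Atf3 at 0.79, ranked 1802 among the genes, the nearest to Myc was Fos at 0.80, ranked 2046, and the nearest to Dusp1 was Egr2 at 1.09, ranked 7273. Such ranks were not taken for other sets of genes, so whether members moved together is not read from them.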

How the data were processed

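Lung RNA was amplified and biotin-labelled by a 3′ IVT kit and hybridized to Affymetrix arrays, per the labels' protocols. Probe set identifiers look like those of whole-transcript arrays. Whether the labelled strand was the one these probes were made for was not tested. The deposited values are log2 values, 1 per probe set and array. The submitters' processing notes name Transcriptome Analysis Console, Affymetrix Expression Console and RMA, with no version. Medians of the arrays ranged from 7.39 to 7.48. The table held 28846 probe sets, of which 6640 were controls by name, 19572 had 1 gene symbol in the platform annotation, 0 had several and 2634 had none there.

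One group-means model over all 10 arrays was fitted with limma 3.58.1 in R 4.3.3 (lmFit, eBayes), and p-values were Benjamini-Hochberg adjusted over 19011 genes, with calls under 0.05. SEs come from this fit, with 5 residual and 51 prior degrees of freedom, so they rest mostly on a spread shared by all genes. The code was tested on simulated data. The members, gene lists, tests and alternatives were chosen with earlier results of these data known. All members were named in every comparison, and of each related list the 4 tested genes with the largest absolute difference. Patterns were matched for Egr1, Myc and Dusp1, leaving out clone-type names. Array number limits the precision.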

Additional observations from a re-analysis of the deposited data

How the results depend on the processing

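The fits were repeated without a filter and with one at the 60th percentile, with median centring or quantile normalization, with probe sets averaged per gene, with eBayes trend and robust, with only the groups compared, with a replicate block, with each array left out in turn and, added after the data were seen, the hybridization controls as a covariate. No gene passed limma's test in the 3 tested comparisons under any of them. In the 3 tested comparisons, 227 of 234 member differences kept their sign under these alternatives, arrays left out and the covariate aside. For injection, Egr2 and Egr3 differed by -0.043 and -0.076 with quantile normalization and -0.019 and -0.0091 with median centring. With the mean of probe sets Egr3 differed by -0.0013 for injection, -0.28 for DTIC against water and -0.28 for DTIC against uninjected mice. With the covariate Egr2, Fos and Nr4a3 differed by -0.90, 0.099 and -0.039 for injection, Egr1 by 0.29 for DTIC against water, and Atf3 and Nr4a1 by -0.25 and 1.02 for DTIC against uninjected mice, and the members' median was -0.22 for DTIC and -0.58 for 5 mg/kg against water. The cause was not tested. The 60th percentile filter dropped Egr1 and Dusp1, which put the median for 25 against 5 mg/kg at -0.54. The replicate block changed no call, with adjusted p = 0.793 for Egr1 with injection (limma, 0 genes passed). Same-numbered arrays did not deviate together (correlations -0.022 to 0.050 over 10 pairs of groups, across genes). With the background probe sets in place of the negative controls, 41 of the 100 member values were above the 95th percentile, as were 39.8% of all gene values.

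Leaving out 1 array turned the sign of 21 of 120 member differences in the tested comparisons, where the lone array is assumed to vary like the other groups. For injection the ranges were -1.21 to 1.23 for Egr2, -0.59 to 0.63 for Egr3, -1.01 to 0.91 for Fos, -1.16 to 0.43 for Jun, -1.27 to 1.22 for Atf3 and -0.44 to 1.92 for Nr4a1. For DTIC against water they were -1.41 to 0.15 for Egr1, -2.06 to 0.27 for Myc, -2.18 to 0.19 for Nr4a1 and -0.47 to 0.95 for Dusp1. For DTIC against uninjected mice they were -2.18 to 0.26 for Egr2, -0.43 to 1.49 for Fos, -1.10 to 1.39 for Atf3, -0.68 to 0.18 for Nr4a1 and -1.01 to 0.40 for Dusp1. The members' median ranged from 0.12 to 0.77 for injection, -0.80 to 0.037 for DTIC against water, -0.21 to 0.59 for DTIC against uninjected mice, -1.03 to -0.63 for 25 mg/kg against water and -0.50 to 0.18 for 25 against 5 mg/kg. With all arrays the median for injection was 0.016, below that range, and it was -0.060 with quantile normalization and -0.014 with median centring. For DTIC against uninjected mice it was -0.051 with all arrays. Over all alternatives, the members' adjusted p from limma was between 0.762 and 1.000 for injection, 0.932 and 1.000 for DTIC against water and 0.90 and 1.000 for DTIC against uninjected mice.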
